A study of Homo sapiens with 13 samples.

Results

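The m6A writer complex is the nuclear assembly that writes N6-methyladenosine (m6A) into messenger RNA, and its 8 subunits VIRMA, METTL3, METTL14, WTAP, ZC3H13, RBM15, RBM15B and CBLL1 were taken by gene name from the 38616 genes of the RNA-seq table. Each name matched 1 row, and the m6A summits inside the annotated span of each gene were taken from both MeRIP-seq summit lists. All 8 subunits passed the filter on low values, which kept 15965 genes.

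METTL3 is the catalytic subunit and transfers a methyl group from S-adenosylmethionine to adenosine. METTL14 pairs with METTL3 and helps to hold the RNA. WTAP keeps this pair in nuclear speckles and joins it to the accessory subunits: VIRMA, a large scaffold linked to methylation near stop codons and in 3′ ends, ZC3H13, a zinc finger protein that holds the complex in the nucleus, RBM15 and RBM15B, which bind RNA, and CBLL1, also called HAKAI, a RING finger protein.

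The cells were MDA-MB-231, an established human line of triple-negative breast cancer, at passage 2 after stable lines had been made with lentivirus. RNA-seq covered 3 libraries each of the non-targeting control (NTC) and of 2 KIAA1429 knockout lines named sg1 and sg2, KIAA1429 being the older name of VIRMA. MeRIP-seq, in which an m6A antibody enriches mRNA fragments and the enriched fragments are set against an input, covered 1 pull-down library and 1 input library of NTC and of cells labelled KIAA1429 KD (knockdown). All groups, the controls included, had been infected with lentivirus and selected. The labels do not say which construct made the knockdown cells, whether a line is 1 clone or a pool, or whether libraries of 1 group are separate cultures. The p-values below therefore reflect only how far these libraries spread, which may be technical.

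RNA-seq depth was 13975173 to 22051705 gene reads per library, and a single subunit had 395 to 3209 reads in a library. The library sg2-1 stood apart from the rest of its group. On the first principal component, with 53.3% of the variance of log2 values, sg2-1 lay at 29.6, sg2-2 and sg2-3 at -68.5 and -77.2, the sg1 libraries at 46.1 to 56.8 and the NTC libraries at -16 to -9.9. The library sg1-3 was set off from sg1-1 and sg1-2 on the second component, with 17.3% of the variance (-34.6 against 2.6 and 2.2), and held 108 normalized counts of the leukocyte gene PTPRC, where the other libraries had 5.23 to 17.7. Markers of the line were present, with VIM, the intermediate filament vimentin, at 25822 ± 1767 (SD, n = 3) in NTC. VIM was 18804 ± 843 in sg1 and 19998 ± 996 in sg2, without overlap with NTC, as for 10.5% of all genes. The summed level of 6 such markers was 74866 to 83685 in NTC, 51441 to 62409 in sg1 and 64844 to 75935 in sg2. With sg2 against NTC, limma called 1 of the 6, TGFBI, as lower (adjusted p = 0.00715), beside 8.76% of all genes. With sg1 it called 0, beside 0.194%. In contrast, ESR1 and PGR, the oestrogen and progesterone receptors, were at 2.15 ± 1.65 and 1.96 ± 1.51 in NTC. Of the other 4 markers taken as low or absent in this line, CDH1 and GATA3 were at 8.91 ± 3.52 and 21.6 ± 11.2 in NTC, but EPCAM, an epithelial adhesion gene, was at 136 ± 6.35 and ERBB2, the receptor HER2, at 1206 ± 30.4, so neither was absent. The summed level of 3 markers of other cell types (PTPRC, PECAM1 and ALB) was 802 to 881 in NTC, 490 to 624 in sg1 and 256 to 386 in sg2, none of the 3 was at 0 in every library, and most of it was PECAM1, an endothelial adhesion gene (826 ± 40.3 in NTC). PECAM1 was called lower with sg2 (log2 fold change -1.37, limma adjusted p = 0.00361), beside the same 8.76% of all genes. With sg1 its log2 fold change was -0.69 (adjusted p = 0.0836). The part of these marker differences in the results on the subunits was not tested, and in bulk RNA a smaller number of cells of a type and less RNA per cell cannot be told apart.

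VIRMA, the gene targeted in both knockout lines, was lower in the sg1 libraries than in NTC by an amount that did not pass the test, and its mRNA was present in every library. Its normalized read count was 2196, 2122 and 2689 in NTC, 1437, 1560 and 1613 in sg1, and 1566, 1990 and 2170 in sg2. The 3 sg1 libraries lay below all NTC libraries, while 1 sg2 library reached into the NTC range and sg2-1 lay among the sg1 libraries. The order of the group means was NTC (2336 ± 308, SD, n = 3), sg2 (1908 ± 310) and sg1 (1536 ± 90.0), and neither gap between neighbours in this order passed the test. The log2 fold change of sg1 against NTC was -0.60 (95% interval -0.93 to -0.27), a 1.51-fold lower level, at a limma adjusted p of 0.0718. For sg2 it was -0.30 (-0.63 to 0.03; adjusted p = 0.236), for the mean of both guides -0.45 (-0.73 to -0.16; adjusted p = 0.0818), and between sg2 and sg1 0.30 (-0.03 to 0.63; adjusted p = 0.133). The threshold was an adjusted p of 0.05 over all genes tested, which none of these 4 values reached.

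The sg1 value of VIRMA passed that threshold in other fits. Blocking sg1 and sg2 by replicate gave an adjusted p of 0.0441, in a fit that called 7.5% of all genes with sg1, and with DESeq2 on the recovered reads it was 0.00668. Without sg2-1, a library that enters this comparison only through the shared estimate of the spread, the fold change stayed at -0.60 and the standard error went from 0.15 to 0.09 (limma adjusted p = 0.000885), but 40.7% of all genes then passed, against 0.194% with all 9 libraries. Without sg2-1, VIRMA also fell in the mean of both guides (log2 fold change -0.38, adjusted p = 0.0122) and was higher with sg2 than with sg1 (0.44, adjusted p = 0.00474), while sg2 against NTC was -0.16 (adjusted p = 0.247). In the same order, 21.6%, 62.9% and 44.8% of all genes passed. A knockout need not remove the transcript, so the mRNA level is a weak check of the labels.

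**Figure D1:**
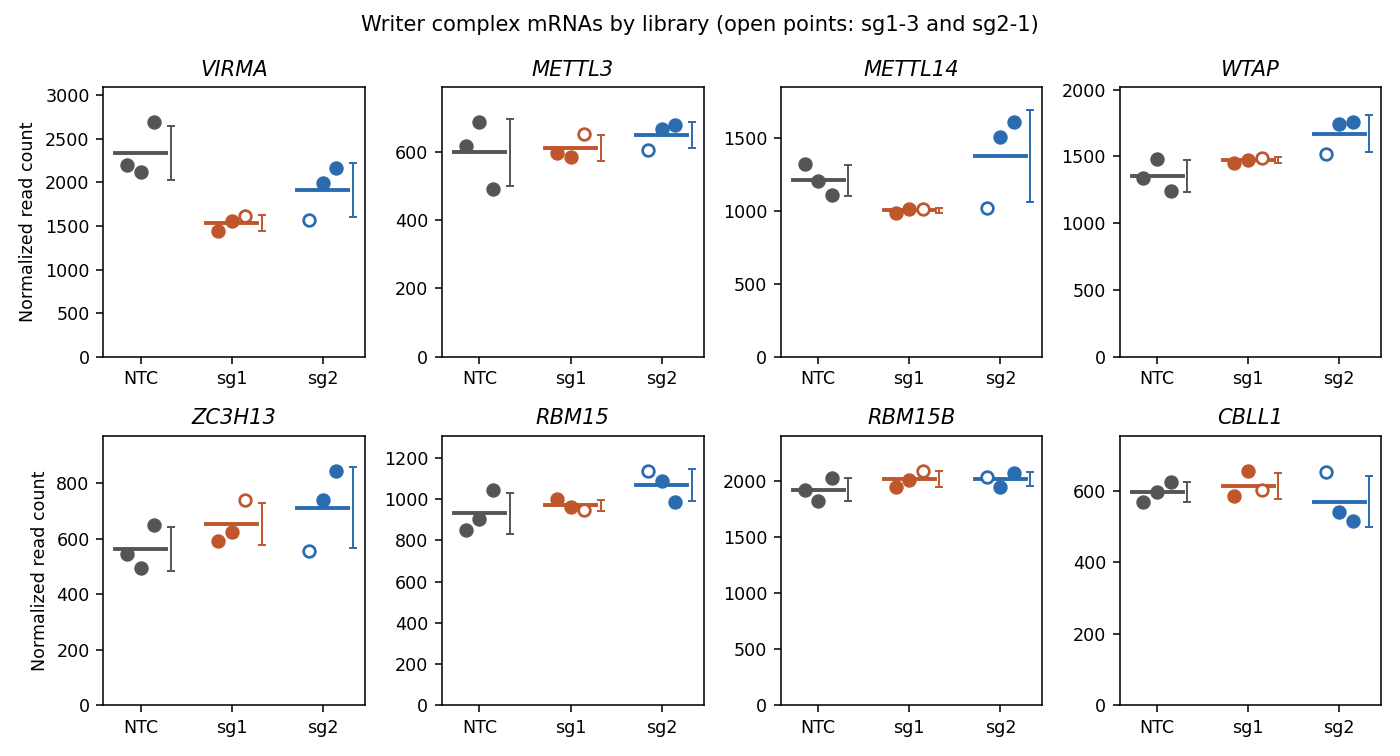
Normalized read count of each subunit (y axis, from 0) in the 9 libraries by group (x axis). Points are libraries, with sg1-3 and sg2-1 open, the horizontal line is the group mean and the bar beside it is the SD (n = 3). VIRMA is lower in all 3 sg1 libraries (1437 to 1613) than in all 3 NTC libraries (2122 to 2689), and the open sg2 point sits among or just above the sg1 points for VIRMA, METTL14 and WTAP.

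Of the 8 subunits, limma called 0 in each of the 4 comparisons (sg1 against NTC, sg2 against NTC, both guides averaged against NTC, and sg2 against sg1). In the same fits 0.194%, 8.76%, 3.98% and 29.8% of all tested genes were called. At an unadjusted p below 0.05 the numbers of subunits were 1, 1, 2 and 1, beside 29.8%, 26%, 20.9% and 46.5% of all genes. edgeR on the recovered reads also called 0 in each comparison, beside 0.169%, 9.92%, 4.3% and 27.4% of all genes. DESeq2 called 1 in each: VIRMA with sg1 and in the mean of both guides, WTAP with sg2 (adjusted p = 0.0298) and METTL14 between the guides (adjusted p = 0.046). It called 14.4%, 19.9%, 11.2% and 38.7% of the genes to which it gave an adjusted p, so 1 of 8 is near or below the share over all genes. The median log2 fold change of the 8 subunits was 0.05, 0.15, 0.08 and 0.13 in the same order, beside -0.01, 0.03, 0.0 and 0.0 over all tested genes. VIRMA and METTL14 were the 2 subunits whose sg1 libraries did not overlap with NTC, both lower, where 52.3% of all genes did not overlap. WTAP was the 1 subunit without overlap between sg2 and NTC, higher, beside 27.8% of all genes, and METTL14 and WTAP were the 2 without overlap between sg2 and sg1, both higher with sg2, beside 41.9%. No subunit had all 6 knockout libraries on 1 side of NTC, a pattern shown by 10.5% of all genes.

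METTL3, the catalytic subunit, was at 617, 687 and 492 in NTC, 597, 585 and 654 in sg1, and 607, 667 and 679 in sg2. The groups overlapped, and the lowest and highest values were both NTC libraries. The order of the means was sg2 (651 ± 38.5, SD, n = 3), sg1 (612 ± 37.1) and NTC (599 ± 98.5), and neither gap between neighbours passed the test. Its log2 fold change was 0.04 with sg1 (95% interval -0.27 to 0.35; limma adjusted p = 0.845), 0.13 with sg2 (-0.18 to 0.44; adjusted p = 0.596) and 0.09 between sg2 and sg1 (-0.22 to 0.40; adjusted p = 0.622).

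METTL14 was at 1321, 1205 and 1108 in NTC, 986, 1017 and 1012 in sg1, and 1021, 1507 and 1609 in sg2. Every sg1 library lay below every NTC and sg2 library, and sg2-2 and sg2-3 lay above all others, with sg2-1 just above sg1. The order of the means was sg2 (1379 ± 314, SD, n = 3), NTC (1211 ± 106) and sg1 (1005 ± 17.0). The log2 difference between sg2 and sg1 was 0.43 (95% interval 0.06 to 0.80; limma adjusted p = 0.0714; 0.0433 once sg1 and sg2 were blocked by replicate, where 39.4% of all genes passed), and against NTC it was -0.27 with sg1 (-0.63 to 0.10; adjusted p = 0.287) and 0.16 with sg2 (-0.21 to 0.53; adjusted p = 0.583). Without sg2-1, METTL14 fell by 0.27 on the log2 scale with sg1 (limma adjusted p = 0.0194), rose by 0.37 with sg2 (adjusted p = 0.00598) and differed by 0.63 between the guides (95% interval 0.44 to 0.82; adjusted p = 0.000112). In the same order, that fit called 40.7%, 44.8% and 62.9% of all genes. METTL3 had 0.04, 0.18 and 0.14 in that fit, with adjusted p from 0.282 to 0.786. With all libraries scaled to the same total, METTL14 was -0.05 with sg1 (limma adjusted p = 0.768) and 0.18 between the guides (adjusted p = 0.202). The median gene then lay at 0.201 and -0.243. With TMM scaling METTL14 was -0.23 and 0.36.

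The proportion of METTL14 to METTL3 reads, which no scaling between libraries can alter, was 2.14, 1.75 and 2.25 in NTC, 1.65, 1.74 and 1.55 in sg1, and 1.68, 2.26 and 2.37 in sg2. The 3 sg1 libraries lay below all NTC libraries, by little for NTC-2, and sg2-1 lay within the sg1 range. For how many gene pairs sg1 parts from NTC in this way was not computed. Reads were not divided by transcript length, so the ratio does not give the number of METTL14 transcripts per METTL3 transcript, and it was compared between libraries only.

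The sequences upstream of METTL3, METTL14 and ZC3H13 are shown because METTL14 and ZC3H13 passed with sg2 in the fit without sg2-1. That fit called 44.8% of all genes. METTL3, the partner of METTL14, was also higher there but did not pass. With all libraries, METTL14, ZC3H13 and METTL3 did not pass with sg2 (limma adjusted p = 0.583, 0.274 and 0.596). Whether the sequences bear on these values was not tested. WTAP rose in the fit without sg2-1 and is not shown, since its windows in the reference table lie inside its annotated span. Each is the 250 bases before the annotated start, in the gene's direction, from RefSeq on GRCh38.p14: chr14:21511341-21511590, minus strand, for METTL3, chr4:118685142-118685391, plus strand, for METTL14, and chr13:46052747-46052996, minus strand, for ZC3H13. Capitals mark CCGGAA, the core of sites of ETS family transcription factors, and CCAAT, the box bound by NF-Y, on either strand (read as TTCCGG and ATTGG on the other).
METTL3: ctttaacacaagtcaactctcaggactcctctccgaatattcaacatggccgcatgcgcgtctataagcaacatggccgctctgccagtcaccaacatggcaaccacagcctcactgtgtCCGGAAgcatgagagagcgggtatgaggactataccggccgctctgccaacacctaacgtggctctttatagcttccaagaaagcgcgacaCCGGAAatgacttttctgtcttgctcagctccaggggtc
METTL14: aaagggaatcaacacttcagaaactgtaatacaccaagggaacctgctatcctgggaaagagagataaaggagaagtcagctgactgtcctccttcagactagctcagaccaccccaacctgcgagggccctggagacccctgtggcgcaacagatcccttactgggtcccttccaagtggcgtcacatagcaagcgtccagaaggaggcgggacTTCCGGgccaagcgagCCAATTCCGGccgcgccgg
ZC3H13: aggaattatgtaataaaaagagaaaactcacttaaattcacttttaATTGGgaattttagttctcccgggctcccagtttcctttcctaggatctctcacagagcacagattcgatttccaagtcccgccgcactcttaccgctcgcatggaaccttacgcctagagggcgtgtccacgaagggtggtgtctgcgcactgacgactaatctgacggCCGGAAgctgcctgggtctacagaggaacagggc

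Windows were found in the reference for 7 of the 8 subunits, those of WTAP lying inside its annotated span and not before it. CCGGAA was found 2 times before METTL3, 130 and 39 bases before its start, and 2 times before METTL14, at 35 and 15 bases, where the second match shares a T with the CCAAT at 19 bases. It was found 1 time before ZC3H13, at 34 bases, and 1 time before CBLL1, at 57 bases, and in none of the windows of WTAP, RBM15 and RBM15B. Over 35116 windows of this length in the reference, chromosome 8 left out, 14.5% hold CCGGAA and 32.0% hold CCAAT. These windows were not limited to genes that passed the filter on low values, as all subunits did, so the sets are unlike. RBM15 had 4 CCAAT matches and METTL3 had 0. The GC box GGGCGG, held by 42.6% of windows, was found in windows of WTAP, RBM15, RBM15B and CBLL1 and of none of the 3 genes shown. CACGTG, held by 6.34%, was found before RBM15 and RBM15B. TATAAA, held by 10.7%, was found before METTL3, and TGACGTCA, held by 1.65%, in the windows of none of the 7. All 6 motifs were searched on both strands, and a match describes letters and not binding.

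WTAP, the adaptor of the catalytic pair, was at 1337, 1479 and 1243 in NTC, 1450, 1476 and 1491 in sg1, and 1514, 1743 and 1754 in sg2. The sg2 libraries lay above all others, and sg1 overlapped with NTC through NTC-2. The order of the means was sg2 (1670 ± 136, SD, n = 3), sg1 (1472 ± 21.1) and NTC (1353 ± 119). The log2 fold change was 0.13 with sg1 (95% interval -0.12 to 0.37; limma adjusted p = 0.444), 0.30 with sg2 (0.06 to 0.55; adjusted p = 0.115) and 0.18 between the guides (-0.07 to 0.43; adjusted p = 0.222). Without sg2-1, WTAP rose by 0.37 with sg2 (limma adjusted p = 0.00409), where 44.8% of all genes passed, by 0.25 in the mean of both guides (adjusted p = 0.0231; 21.6% of genes) and by 0.25 from sg1 to sg2 (adjusted p = 0.0218; 62.9% of genes).

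The WTAP gene (chromosome 6, 159726693 to 159756319, plus strand, GRCh38) lies inside the annotated span of SOD2, the mitochondrial superoxide dismutase. SOD2 was at 4366 ± 585 (SD, n = 3) in NTC, 8384 ± 767 in sg1, and 5703, 2342 and 2287 in the 3 sg2 libraries in order of number, and was lower with sg2 than with sg1 (log2 difference -1.42, limma adjusted p = 0.0182). WTAP was higher where SOD2 was lower between the guides. The sources used here do not state how reads in shared stretches were assigned or whether strand was used, and the part of SOD2 reads in the WTAP values was not tested.

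ZC3H13 was at 544, 494 and 650 in NTC, 592, 626 and 739 in sg1, and 555, 738 and 844 in sg2. All groups overlapped, with sg2-1 near the lower NTC libraries. The order of the means was sg2 (712 ± 146, SD, n = 3), sg1 (653 ± 77.0) and NTC (563 ± 80.1), and neither gap between neighbours passed the test. The log2 fold change was 0.22 with sg1 (95% interval -0.18 to 0.61; limma adjusted p = 0.406), 0.33 with sg2 (-0.06 to 0.72; adjusted p = 0.274) and 0.11 between the guides (-0.28 to 0.50; adjusted p = 0.629). Without sg2-1 it rose by 0.50 with sg2 (95% interval 0.20 to 0.80; adjusted p = 0.0133) and by 0.36 in the mean of both guides (adjusted p = 0.0423), where 44.8% and 21.6% of all genes passed.

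Neither gene of the RNA-binding pair was called by limma in any of the 4 comparisons. RBM15 was at 850, 903 and 1043 in NTC, 1000, 960 and 949 in sg1, and 1137, 1087 and 986 in sg2, with overlap between all groups. Its means were 932 ± 99.8 (SD, n = 3) in NTC, 970 ± 26.8 in sg1 and 1070 ± 76.7 in sg2. RBM15B was at 1913, 1821 and 2026 in NTC, 1942, 2001 and 2085 in sg1, and 2029, 1942 and 2069 in sg2, again with overlap, and with means of 1920 ± 103, 2010 ± 71.6 and 2014 ± 64.7 in the same order. For RBM15B the 95% intervals of the log2 fold change were -0.15 to 0.28 with sg1, -0.15 to 0.29 with sg2 and -0.22 to 0.22 between the guides, and for RBM15 they were -0.19 to 0.32, -0.05 to 0.46 and -0.12 to 0.40. The limma adjusted p ranged from 0.304 to 0.724 for RBM15 and from 0.656 to 0.983 for RBM15B over the 4 comparisons. The number of RBM15B reads per RBM15 read was 2.07 ± 0.161 (SD, n = 3) in NTC, 2.07 ± 0.127 in sg1 and 1.89 ± 0.18 in sg2.

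CBLL1 was at 569, 597 and 624 in NTC, 585, 655 and 602 in sg1, and 651, 540 and 516 in sg2. The groups overlapped, and sg2-2 and sg2-3 were the lowest of all libraries while sg2-1 was among the highest. Its means were 597 ± 27.5 (SD, n = 3) in NTC, 614 ± 36.5 in sg1 and 569 ± 71.9 in sg2, and the limma adjusted p ranged from 0.468 to 0.943 over the 4 comparisons. Without sg2-1 the log2 difference between the guides was -0.22 (95% interval -0.41 to -0.02; limma adjusted p = 0.0532).

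The library sg2-1 differed from the mean of sg2-2 and sg2-3 by -0.61 (log2) for METTL14, -0.51 for ZC3H13, -0.41 for VIRMA, -0.21 for WTAP and -0.15 for METTL3, and by 0.30, 0.14 and 0.02 for CBLL1, RBM15 and RBM15B. From the mean of sg1 it differed by -0.01 to 0.04 for VIRMA, METTL3, METTL14, WTAP and RBM15B, by 0.09 for CBLL1, by 0.23 for RBM15 and by -0.23 for ZC3H13. Without sg2-1, limma called 2 subunits for sg1 (VIRMA and METTL14, lower) and 3 for sg2 (METTL14, WTAP and ZC3H13, higher). Averaged over both guides it called 3 (VIRMA lower, WTAP and ZC3H13 higher), and sg2 against sg1 gave 3 (VIRMA, METTL14 and WTAP, higher with sg2). The shares of all genes called in those fits were the 40.7%, 44.8%, 21.6% and 62.9% given above. The library labelled sg2-1 was kept in its group throughout, since nothing in the labels sets it apart.

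**Figure D2:**
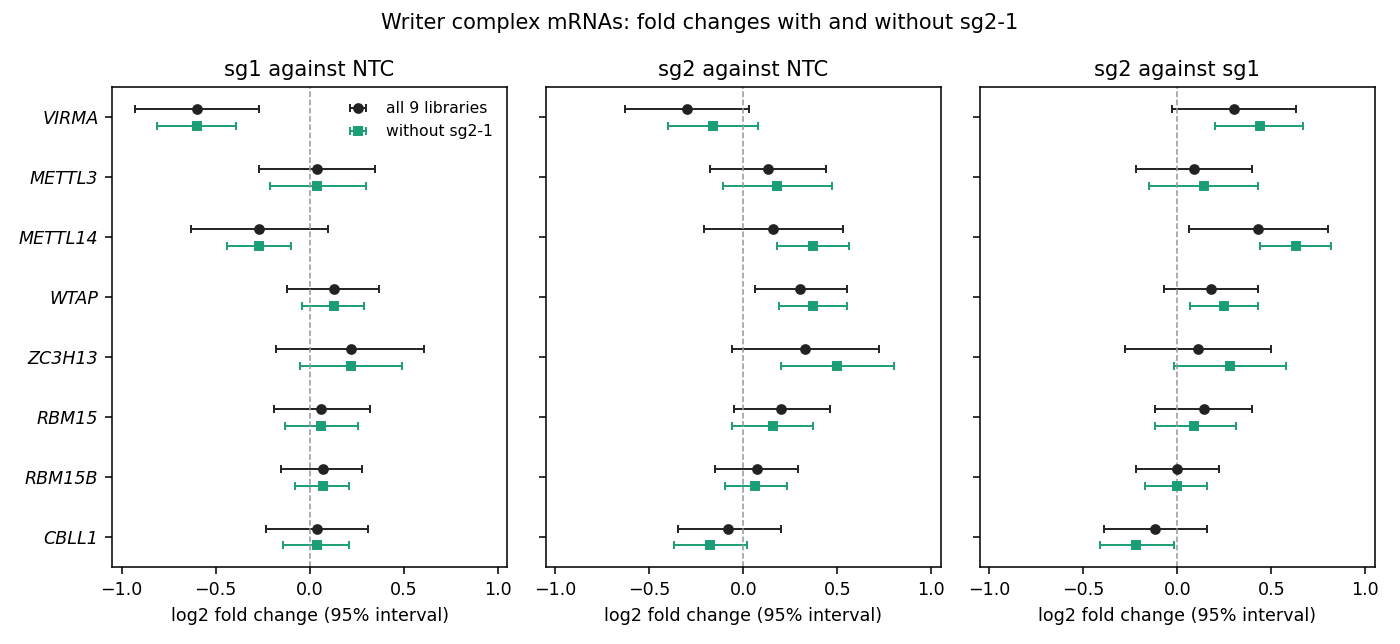
Log2 fold change (x axis) of each subunit (y axis) with its 95% interval from limma, for sg1 against NTC, sg2 against NTC and sg2 against sg1. Black circles are fits with all 9 libraries and green squares fits without sg2-1. For METTL14 between the guides the interval is 0.06 to 0.80 with all libraries and 0.44 to 0.82 without sg2-1, while the intervals of METTL3 span 0 in all panels.

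The makeup of the complex at the mRNA level was also read as the share of each subunit in the summed reads of the 8, which does not depend on scaling between libraries. VIRMA took 23.5%, 22.8% and 27.2% of these reads in NTC, 16.7%, 17.6% and 17.6% in sg1, and 17.2%, 19.5% and 20.4% in sg2. All 6 knockout libraries lay below all 3 NTC libraries by this measure, while by normalized read count sg2 overlapped with NTC. WTAP took 14.3%, 15.9% and 12.6% in NTC and 16.3% to 17.1% in the knockout libraries, all above NTC. How often the share of a gene in such a sum parts the libraries in this way was not computed. The shares sum to 100%, so a lower share of VIRMA goes with higher shares of other subunits even where their own levels are the same.

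METTL3 took 6.32% ± 1.22 (SD, n = 3) in NTC, 6.90% ± 0.29 in sg1 and 6.54% ± 0.149 in sg2, and METTL14 took 12.8% ± 1.46, 11.3% ± 0.23 and 13.7% ± 2.15. ZC3H13 took 5.90% ± 0.645, 7.34% ± 0.646 and 7.09% ± 0.92, and RBM15 took 9.78% ± 0.738, 10.9% ± 0.643 and 10.8% ± 1.63. RBM15B took 20.2% ± 0.531 in NTC, 22.6% ± 0.134 in sg1 and 20.3% ± 1.81 in sg2, with sg2-1, at 22.3%, near sg1. The 8 subunits together had 8003 to 14076 reads per library. The number of VIRMA reads per METTL14 read was 1.66, 1.76 and 2.43 in NTC, 1.46, 1.53 and 1.59 in sg1 and 1.53, 1.32 and 1.35 in sg2, with every knockout library below every NTC library. How many gene pairs part in this way was not computed. The number of VIRMA reads per METTL3 read was 4.04 ± 1.26 (SD, n = 3) in NTC, 2.51 ± 0.137 in sg1 and 2.92 ± 0.313 in sg2, where sg2 overlapped with NTC.

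**Figure D3:**
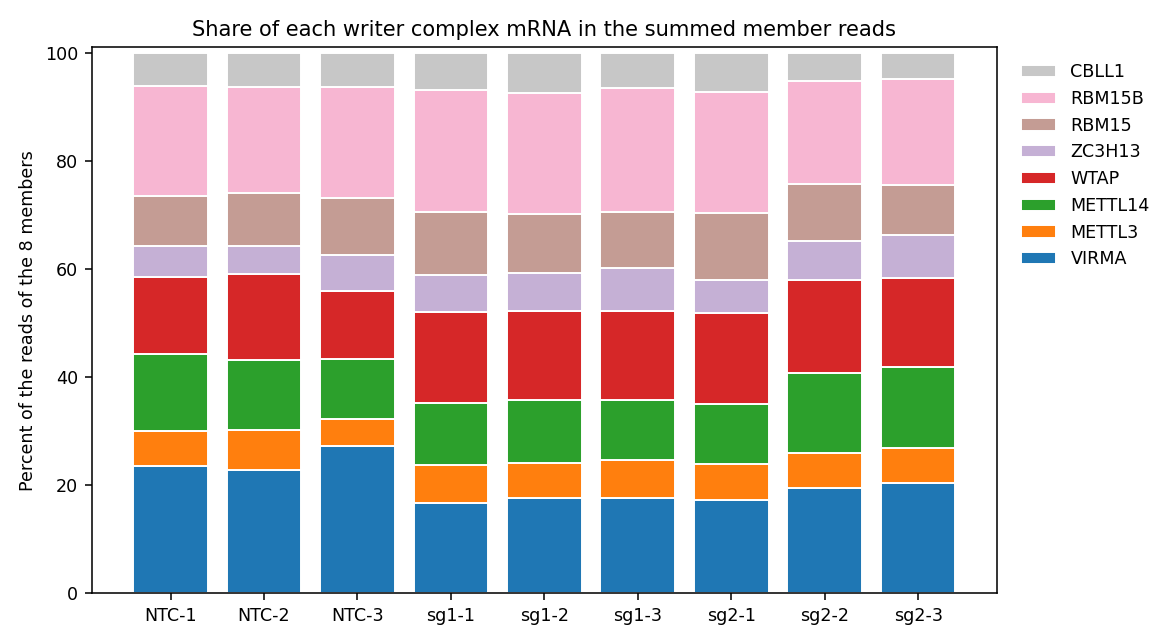
Percent of the summed reads of the 8 subunits taken by each of them (y axis, stacked from 0 to 100) in each library (x axis). The lowest block, VIRMA, is 22.8% to 27.2% in NTC and 16.7% to 20.4% in the 6 knockout libraries. Shares depend on transcript length and are compared between libraries only.

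The genes whose profile over the 9 libraries was nearest to that of VIRMA were found among 10436 tested genes with a mean of at least 100, by the root mean square distance between centred log2 profiles. They were PKIG, an inhibitor of protein kinase A (distance 0.087), SOCS5, a suppressor of cytokine signalling (0.088), LMBR1 (0.089), ARPP19, an inhibitor of the phosphatase PP2A (0.092), and OAZ2, an ornithine decarboxylase antizyme (0.092). The spread of VIRMA about its own mean was 0.286 and the median gene lay at 0.347. ARPP19, for example, was at 5281 ± 685 (SD, n = 3) in NTC, 3531 ± 95.7 in sg1, and 3589, 5220 and 5196 in the 3 sg2 libraries. Nearest to METTL3 were WRAP73 (0.061), R3HCC1L (0.069), PAXBP1 (0.07), PRKRIP1 (0.075) and MUTYH, a DNA glycosylase (0.079), where METTL3 had a spread of 0.14 and the median gene lay at 0.312. Flat profiles are near each other whatever the genes are, which makes the distances to METTL3 small.

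Other genes of the m6A pathway were set beside the subunits. Both erasers, FTO and ALKBH5, which remove the mark, had 0 calls in each of the 4 comparisons in limma, edgeR and DESeq2, and 0 at an unadjusted p below 0.05, also without sg2-1. Of 11 tested readers, proteins that bind methylated RNA or sites opened by it, limma called 0 against NTC in any comparison (2, 2 and 1 at an unadjusted p below 0.05 in the 3 comparisons; 0 in edgeR, and in DESeq2 1, 2 and 0; the shares of all genes are those given for the subunits). Between the guides limma and edgeR called 1 reader, HNRNPC, higher with sg2 by 1.02 on the log2 scale (limma adjusted p = 0.0275), and DESeq2 called 4, with RBMX, HNRNPA2B1 and YTHDF2. Without sg2-1, limma called 4 readers with sg1 (HNRNPC and RBMX lower, IGF2BP2 and YTHDF1 higher), 5 as higher with sg2 (HNRNPC, RBMX, FMR1, HNRNPA2B1 and YTHDF2) and 1 as higher in the mean of both guides (HNRNPA2B1). In that fit 6 differed between the guides, of which YTHDF1 was lower with sg2. The number of readers called, like that of the subunits, was higher in these fits, which called 40.7%, 44.8%, 21.6% and 62.9% of all genes. HNRNPC was at 16509 ± 371 (SD, n = 3) in NTC, 9776 ± 71.7 in sg1, and 11351, 25391 and 27015 in the 3 sg2 libraries.

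Of 6 other RNA adenosine methyltransferases and cofactors, limma called 0 against NTC (3, 1 and 0 at an unadjusted p below 0.05). Against NTC edgeR called 0, and DESeq2 called 1, 0 and 0. Between the guides limma called 4 as higher with sg2 than with sg1. They were METTL5, which methylates 18S rRNA (log2 difference 1.11, adjusted p = 0.0274), its activator TRMT112 (0.84, adjusted p = 0.0305), METTL4 (0.60, adjusted p = 0.025) and ZCCHC4, which methylates 28S rRNA (0.51, adjusted p = 0.0241). Without sg2-1, limma called 3 of the 6 as lower with sg1 (METTL4, METTL5 and TRMT112), 3 as higher with sg2 (METTL5, TRMT112 and METTL16), 0 when the guides were averaged (2 at an unadjusted p below 0.05) and 5 as higher with sg2 than with sg1. In the same order, 40.7%, 44.8%, 21.6% and 62.9% of all genes were called. Of 3 genes of the metabolism of S-adenosylmethionine, the methyl donor of METTL3, limma called 0 against NTC (1, 1 and 0 at an unadjusted p below 0.05). edgeR and DESeq2 each called AHCY with sg2, and DESeq2 called MAT2B with sg1. In limma AHCY, which clears the by-product of methylation, was higher with sg2 than with sg1 (0.93, adjusted p = 0.0187). So was MAT2B (0.71, adjusted p = 0.0447). Without sg2-1, 2 of the 3 were called in each comparison against NTC: MAT2B lower and MAT2A higher with sg1, MAT2B and AHCY higher with sg2, and MAT2B lower and AHCY higher in the mean. The shares of all genes called in these comparisons were 40.7%, 44.8% and 21.6%. Of 4 partners of VIRMA in 3′ end processing, 0 were called against NTC by limma, edgeR or DESeq2 (1, 0 and 0 at an unadjusted p below 0.05 in limma), and NUDT21, the CFIm25 subunit, was higher with sg2 than with sg1 (0.71, adjusted p = 0.0332). Without sg2-1, NUDT21 fell with sg1 (log2 fold change -0.50, adjusted p = 0.000505) and rose with sg2 (0.50, adjusted p = 0.000702), CPSF7 rose with sg1 and fell with sg2 (0.41 and -0.30), and 3 of the 4 differed between the guides, where 62.9% of all genes were called. The order of the libraries for METTL14, lowest in sg1 and sg2-1 and highest in sg2-2 and sg2-3, was also that of HNRNPC, RBMX, METTL5, TRMT112, METTL4, MAT2B and NUDT21. These genes were named because they were called between the guides, so much of this order was built in. The marker EPCAM, outside the m6A pathway, had it too. The first principal component, with 53.3% of the variance, also set sg1 and sg2-1 apart from sg2-2 and sg2-3. The share of all genes with this order was not computed. Of all tested genes 29.8% were called between the guides.

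The MeRIP-seq lists held 8377 summits in control cells and 5923 in knockdown cells, 1 list per condition and no replicates. A summit is the point of strongest enrichment of a called peak, and its score is the authors' -log10 value, used here to rank summits within a list. Of the 8 subunit genes 6 held at least 1 summit in each list, beside 38.4% of 12204 tested protein-coding genes in the control list and 29.9% in the knockdown list. The 6 genes held 14 control summits and 11 knockdown summits. VIRMA held 1 and 1, WTAP 2 and 2, ZC3H13 3 and 1, RBM15 3 and 3, RBM15B 3 and 2, and CBLL1 2 and 2. Those of WTAP also lie inside the span of SOD2 and may belong to either gene. METTL3 and METTL14, the catalytic pair, held 0 in either list. The files give no depth for MeRIP-seq, a gene without a summit may carry m6A below detection, and the number of summits also depends on how much of each mRNA was present.

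RBM15 carried the strongest summits of the set together with ZC3H13. RBM15 (chromosome 1, 110339377 to 110346677, plus strand, GRCh38) had control summits 1008, 1579 and 2668 nt from the annotated start, at 110340385, 110340956 and 110342045, with scores of 14.73, 18.62 and 9.76. Its knockdown summits at 110340293, 110341106 and 110342057 lay 92, 150 and 12 nt from the nearest control summit, with scores of 11.7, 12.13 and 6.21. These scores were at or above those of 84.0%, 85.9% and 44.5% of the knockdown list, and the control scores were at or above those of 87.1%, 94.9% and 65.2% of the control list. Ranks from lists of different lengths do not show a change.

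RBM15B (chromosome 3, 51391285 to 51397908, plus strand) had control summits at 1029, 1894 and 2636 nt from its start, with scores of 10.06, 8.76 and 8.01. The knockdown summits at 51393286 and 51393946 lay 107 and 25 nt from the second and the third, with scores of 8.45 and 4.32, and the nearest knockdown summit to the first, at 51392314, lay 972 nt away. The span of RBM15B overlaps that of DCAF1, but none of these summits lies inside the span of DCAF1. In both paralogues the summits fell within the 5′ part of the span, between 916 and 2680 nt from the start for RBM15, of 7301 nt, and between 1029 and 2661 nt for RBM15B, of 6624 nt.

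WTAP had control summits at 159748314 and 159755399 with scores of 10.1 and 5.49, and knockdown summits 18 and 22 nt from them with scores of 5.49 and 7.66. The second pair lies 920 and 942 nt before the annotated end of the gene. A further summit pair lay just outside the span, 14 nt before the start in the control list (score 9.06) and 62 nt before it in the knockdown list (score 7.91). All of these positions are also inside the span of SOD2, and the lists do not give the strand.

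ZC3H13 (chromosome 13, 45954465 to 46052746, minus strand) had 3 control summits. The strongest, at 45985604, had a score of 18.62, above or level with 94.9% of the control list, and the knockdown summit 78 nt away had 4.57, at 26.3% of its list. The other control summits, at 45967786 and 45969397, had scores of 4.23 and 3.86 and were 17896 and 16285 nt from the nearest knockdown summit. CBLL1 (chromosome 7, 107744142 to 107761667, plus strand) had control summits at 107758243 and 107758729 with scores of 6.95 and 7.61, and knockdown summits 55 and 99 nt from them with scores of 2.38 and 3.89, at 5.9% and 19.1% of that list. VIRMA (chromosome 8, 94487689 to 94553469) had 1 summit in each list, at 94511527 (score 6.11) and at 94519219 (score 5.86), which lay 7692 nt apart.

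**Figure D4:**
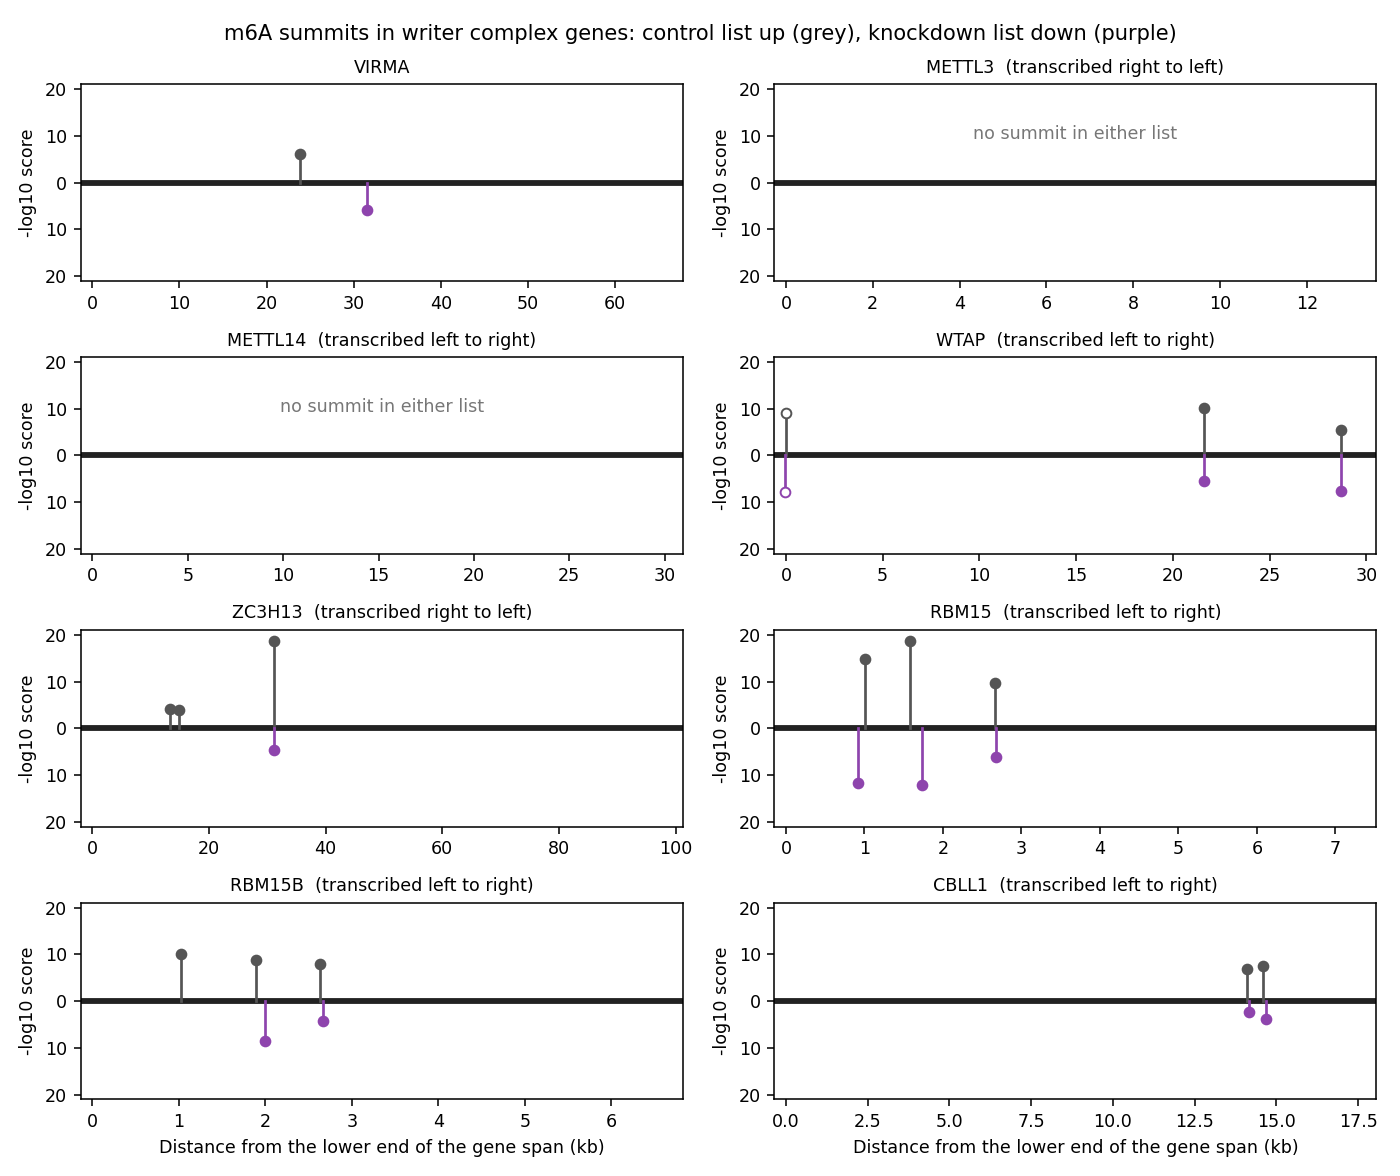
Summits in the 8 subunit genes, by distance from the lower end of the gene span in kb (x axis, own scale per gene) and -log10 score (y axis), with the control list drawn up in grey and the knockdown list down in purple. Open points lie outside the span. RBM15 shows 3 summits in each list, ZC3H13 has its strongest control summit at 18.62 beside a knockdown summit at 4.57, and METTL3 and METTL14 have none.

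A control summit was taken as kept where a knockdown summit lay within 100 nt. Of the 14 control summits in the subunit genes 8 were kept, or 57.1% (exact Clopper-Pearson 95% interval 28.9 to 82.3%, for counting error only), beside 48.5% of the 7562 control summits in all protein-coding spans. The interval includes the share over all genes. Kept summits were 2 of 2 in WTAP, 2 of 2 in CBLL1, 2 of 3 in RBM15, 1 of 3 in RBM15B, 1 of 3 in ZC3H13 and 0 of 1 in VIRMA. Those counted for WTAP also lie inside the span of SOD2. The share was 28.6% within 50 nt, where it was 40.1% over all genes, and 71.4% within 500 nt, where it was 59.7%. Among control summits with a score of at least 10 it was 60.0% (3 of 5), where it was 69.1% over all genes. Summits of 1 gene share a transcript and are not independent, and without replicate lists the loss of a summit cannot be told apart from a lower depth or a weaker pull-down.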

How the data were processed

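RNA-seq of MDA-MB-231 cells was analysed in 9 libraries (NTC, sg1 and sg2, 3 each) and MeRIP-seq in 4 (pull-down and input of NTC and of KD). Groups and replicate numbers come from the sample titles. Tools named in the submitters' processing notes are MACS2, HTSeq, STAR, cutadapt, DESeq2 and FastQC 0.11.8, with the build hg38 and no roles or settings. For MeRIP-seq, mRNA was fragmented to 100 to 200 nt and 10% was kept as input, per the labels' protocols.

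For RNA-seq the authors deposited a normalized signal per gene, called normalized read count here. In every library 100.0% of values were whole multiples of 1 step within 0.1 read, so they are gene reads divided by 1 factor per library, and the reads were recovered from them. The step of NTC-2 lies near 1, so its reads are recovered with less certainty. Depth was 13975173 to 22051705 gene reads.

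A value of 10 or more in 3 or more libraries was required of a gene, and limma 3.58.1 (R 4.3.3) was run on log2(value + 1), with all 9 libraries in 1 fit, a trended prior variance, no covariates and Benjamini-Hochberg adjustment over all genes tested (threshold 0.05). Fold changes on that scale understate the change of low genes. The recovered reads were tested with DESeq2 1.42.0 and edgeR 4.0.16 as alternatives, beside other scalings, filters, pseudocounts and blocks, and fits with libraries left out. The steps were tested on simulated data. The subunits, gene lists, markers and alternatives were chosen with earlier results of these data known. The text names all subunits with all their summits, the other m6A genes that passed the threshold, the markers quoted, genes whose span overlaps a subunit and described there, and the 5 nearest profiles of VIRMA and of METTL3.

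Deviations of same-numbered sg1 and sg2 libraries from their group means correlated at 0.219, 0.156 and 0.258, and those of same-numbered NTC and knockout libraries at -0.131 to 0.02. For different numbers they were -0.303 to -0.01 between sg1 and sg2, and -0.069 to 0.113 with NTC. On this evidence, which the labels do not give, equal numbers may mark pairs between both knockout lines, and not with NTC. Deviations within a group depend on each other, so these values do not settle the pairing. The main results are unpaired, and a fit blocked by number within sg1 and sg2 is an alternative, given beside the results whose call it changes.

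Each summit list, as deposited, gives a position and a -log10 score per summit, with 1 list per condition. Gene positions, strands and upstream sequences come from RefSeq on GRCh38. Exons, sequence around summits and values per transcript length were not used here. HBB, YTHDC1 and CBLL1-AS1 were not analysed here.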

Additional observations from a re-analysis of the deposited data

How the results depend on the processing

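For the 8 subunits in 4 comparisons, 600 values were recomputed over 19 alternatives. Direction and side of the threshold held in 542, 31 kept their direction and newly passed, and 27 changed sign. Numbers below follow the order sg1, sg2, mean of both guides and sg2 against sg1. Of the 8 subunits limma called 0 in each with all libraries. DESeq2 called 1, 1, 1 and 1, the fit of only the 2 groups compared called 2 with sg1 and the replicate block in sg1 and sg2 called 1 with sg1 and 1 between the guides, changing no other call. Without sg1-3 and sg2-1 the numbers were 2, 3, 3 and 4, and leaving out 1 library gave 0 to 2, 0 to 3, 0 to 3 and 0 to 3, all of the calls coming without sg2-1.

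Over all genes limma called 31, 1399, 636 and 4758. DESeq2 called 2229, 2655, 1632 and 5758, and no filter gave 874 with sg2 and 336 in the mean. Scaling to the same total gave 112 with sg1. It moved the median of all genes from -0.013 to 0.201 for sg1 and from 0 to -0.243 between the guides, where calls went from 2919 higher and 1839 lower to 1933 and 2706. Fits of the 2 groups compared gave 5978 with sg1, 639 with sg2 and 3 between the guides (6203 at an unadjusted p below 0.05). The replicate block over all libraries gave 0 with sg1 (4673 at an unadjusted p below 0.05; edgeR without a block called 27) and 290 in the mean, and the replicate block in sg1 and sg2 gave 1197 with sg1. Without sg1-3 and sg2-1 the numbers were 6557, 8014, 4186 and 10213, and leaving out 1 library gave 0 to 6490, 355 to 7160, 30 to 3455 and 17 to 10037. The cause was not tested.

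No value that changed sign passed the threshold in the fit where it did so (adjusted p from 0.129 to 0.997). Scaling to the same total gave -0.16 for METTL3, -0.07 for WTAP, -0.13 for ZC3H13, -0.11 for RBM15 and -0.24 for RBM15B between the guides, against a median gene at -0.243, and 0.04 for METTL14 and 0.08 for CBLL1 in the mean of both guides. RBM15B between the guides was -0.06 with edgeR, -0.04 with DESeq2 and -0.06 with TMM scaling, and CBLL1 in the mean was 0.01 with DESeq2. Without sg1-3 and sg2-1, METTL3 with sg1 was -0.01 and METTL14 in the mean 0.05. Leaving out 1 library gave -0.09 to 0.15 for METTL3, -0.0013 to 0.15 for RBM15 and -0.01 to 0.07 for CBLL1 with sg1, -0.0013 to 0.24 for METTL3 with sg2, -0.05 to 0.19 for METTL3, -0.11 to 0.05 for METTL14 and -0.07 to 0.02 for CBLL1 in the mean, and -0.02 to 0.28 for ZC3H13 and -0.02 to 0.03 for RBM15B between the guides. The limma adjusted p of VIRMA with sg1 ranged from 0.000594 to 0.234 and its fold change from -0.66 to -0.38. The share of control summits kept in the subunits was 57.1% within 100 nt, 28.6% within 50 nt (40.1% over all genes), 20.0% for scores of at least 10 in both lists (33.5%) and 60.0% for such scores in the control list alone (69.1%).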
